A study of Mus musculus with 20 samples.

Results

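The 10 genes described here are macrophage markers, C1qa, C1qb, C1qc, Csf1r, Mrc1, Tyrobp, Cd68, Lyz2, Cd14 and Spi1, taken as all probe sets of the array whose gene symbol is one of these names. They are 10 of the 17097 genes that the array measures with probe sets of a single symbol, and each was read by 1 probe set. They were followed in 20 mouse samples, 1 Affymetrix array each, in 4 groups. CDS tumors (6 arrays, numbered 1 to 6) are CIC-DUX4 sarcomas: embryonic mesenchymal cells (eMC) carrying the fusion gene CIC-DUX4 were transplanted into nude mice and individual subcutaneous tumors were taken. ES tumors (6 arrays, numbered 41, 46, 47, 48, 49 and 51) are mouse Ewing sarcomas grown under the skin of Balb/c nude mice, and no label says how they were initiated. No tumor was treated. The eMC CIC-DUX4 samples (4 arrays, 5 to 8) are primary mesenchymal cells collected 48 hours after transduction with the retrovirus pMYs-CIC-DUX4-IRES-GFP, and the eMC empty samples (4 arrays, 4 to 7) are such cells transduced with pMYs-IRES-GFP. Both eMC groups carry a GFP retrovirus and were cultured in serum, outside an animal. The share of cells that took up the virus, the age of the hosts and whether separate cultures gave the eMC arrays are given by no label, so p-values reflect no more than the spread between these samples.

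Macrophages are phagocytes that arise from yolk sac precursors, fetal liver and blood monocytes, and they are common in the stroma of solid tumors. C1qa, C1qb and C1qc encode the chains of C1q, the molecule that recognises antibody and dying cells in the classical complement pathway and that tissue macrophages make in quantity. Csf1r is the receptor for the macrophage growth factors Csf1 and Il34, Spi1 (PU.1) is the transcription factor that directs myeloid development, and Tyrobp (DAP12) is the adaptor that carries signals from receptors such as Trem2. Mrc1 is the mannose receptor, Cd14 the co-receptor for bacterial lipopolysaccharide, Cd68 a glycoprotein of the lysosome membrane and Lyz2 a lysozyme. Nude mice have no thymus and few T cells, but they keep their macrophages and other myeloid cells.

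The C1q genes lie next to each other on chromosome 4 in the order C1qb, C1qc, C1qa, and together with Mrc1 they carry the main differences below, so the promoter windows on record for them are shown here. The windows run from 250 bases before to 50 bases after the transcription start in RefSeq's annotation of mouse build GRCm38.p6, and 5 of the 10 genes matched one (C1qb, C1qc, Mrc1, Cd68 and Lyz2). Capitals mark GAGGAA, a core sequence of the kind bound by Spi1, or its reverse complement TTCCTC. The windows are chr4:136886151-136886450 (minus strand) for C1qb, chr4:136892865-136893164 (minus strand) for C1qc and chr2:14229164-14229463 (plus strand) for Mrc1, each written 5′ to 3′ along the gene.
C1qb: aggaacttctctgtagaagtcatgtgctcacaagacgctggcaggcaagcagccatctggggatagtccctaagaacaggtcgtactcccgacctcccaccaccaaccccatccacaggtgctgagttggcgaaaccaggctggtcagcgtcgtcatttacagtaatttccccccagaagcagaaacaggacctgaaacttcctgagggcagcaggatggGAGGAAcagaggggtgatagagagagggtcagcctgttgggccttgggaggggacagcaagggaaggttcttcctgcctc
C1qc: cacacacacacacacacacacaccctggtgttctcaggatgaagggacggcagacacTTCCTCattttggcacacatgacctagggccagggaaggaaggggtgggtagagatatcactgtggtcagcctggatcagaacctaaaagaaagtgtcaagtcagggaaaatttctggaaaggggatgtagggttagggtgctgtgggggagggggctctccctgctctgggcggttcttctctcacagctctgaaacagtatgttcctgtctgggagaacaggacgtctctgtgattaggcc
Mrc1: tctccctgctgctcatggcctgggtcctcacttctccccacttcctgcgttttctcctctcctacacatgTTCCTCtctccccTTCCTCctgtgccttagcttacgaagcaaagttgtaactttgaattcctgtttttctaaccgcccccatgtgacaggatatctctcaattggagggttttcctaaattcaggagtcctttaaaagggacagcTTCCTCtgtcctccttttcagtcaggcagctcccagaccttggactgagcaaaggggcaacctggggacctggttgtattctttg

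The hexamer, searched on both strands, occurred 1 time in the C1qb window, 1 time in the C1qc window and 3 times in the Mrc1 window. The Cd68 window held 2 matches and the Lyz2 window 0. It was present in 4 of the 5 windows, and 28.3% of all 32851 windows of this length hold it. A match is a run of letters and does not show binding.

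The deposited values are log2 signals made with MAS5, and every signal below is given as log2(signal + 1.42). The arrays' distributions differ: between 11.7% and 57.6% of the probe sets of a CDS array, 27.9% and 40.5% of an ES array, 38.6% and 71.4% of the 3 eMC CIC-DUX4 arrays where it could be measured and 11.1% and 27.0% of an eMC empty array lay in the bright part of the array, above the dip that separates it from the dim part. The main results are therefore given on a second scale as well, after the log2 values of all arrays were quantile-normalized, and each gene's rank among all probe sets of its own array is given as a percentile. The signal of the Actb probe set at the 3′ end exceeded that at the 5′ end, a sign of shortened RNA, by 0.31 to 1.28 (log2) in CDS arrays, 0.17 to 0.31 in ES arrays, 0.19 to 0.23 in eMC CIC-DUX4 arrays and 0.13 to 0.20 in eMC empty arrays. CDS 5 (1.16) and CDS 6 (1.28) had the largest differences and, at 11.7% and 20.1%, the smallest bright shares among the CDS tumors. A gene was called when limma's Benjamini-Hochberg adjusted p over all 12343 genes was under 0.05 and the log2 fold change at least 1 in size. Values after a plus-minus sign are SDs for means and standard errors for fold changes.

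The comparison of tumors with cultured eMC asks what differs between sarcomas in a mouse and cultured mesenchymal cells, the cell type that gave rise to the CDS tumors. The C1q chains were far higher in both kinds of tumor than in eMC empty cells. Log2 signals of C1qa were 10.26 to 12.65 in CDS tumors (median 12.38) and 11.66 to 13.17 in ES tumors (median 12.59), and 4.59, 4.76, 4.53 and 4.82 in eMC empty cells 4 to 7. No tumor overlapped an eMC empty array. C1qa was 7.35 ± 0.63 higher on the log2 scale in CDS tumors than in eMC empty cells (adjusted p = 3.11e-07) and 7.89 ± 0.36 higher in ES tumors (adjusted p = 4.21e-08). On the quantile scale the same fold changes were 4.71 and 5.35. Since every eMC empty array read C1qa below its dip, in the range where signals carry little information, the differences in the deposited signals are given as bounds, at least 36.7-fold in CDS tumors and at least 53.5-fold in ES tumors. Such bounds, here and below, hold for the deposited signals only, and the quantile values can lie below them. In tissue samples such as these, fewer cells of a type and less RNA per cell cannot be told apart.

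C1qb and C1qc gave the same pattern. C1qb had log2 signals of 6.62 to 11.87 in CDS tumors (median 11.49) and 11.05 to 12.57 in ES tumors (median 12.13), against 4.499, 4.43, 3.91 and 3.62 in eMC empty cells 4 to 7. C1qc had 5.96 to 11.04 in CDS tumors (median 10.41) and 10.35 to 11.95 in ES tumors (median 11.40), against 3.89, 4.27, 3.67 and 3.74 in those eMC empty cells. All tumors lay above all eMC empty arrays for both genes, although CDS 5 (6.62 for C1qb and 5.96 for C1qc) and CDS 6 (8.53 and 8.87) fell well short of the other CDS tumors. CDS 5 read both genes below its dip, so its gap from eMC empty cells lies between dim signals. Against eMC empty cells, C1qb was higher in CDS tumors by at least 11.2-fold (log2 fold change 6.19 ± 1.06, adjusted p = 0.000550) and in ES tumors by at least 37.1-fold (7.92 ± 0.41, adjusted p = 1.19e-07). C1qc was higher in CDS tumors by at least 6.76-fold (5.69 ± 1.04, adjusted p = 0.000956) and in ES tumors by at least 21.3-fold (7.35 ± 0.46, adjusted p = 4.66e-07). After quantile normalization the log2 fold changes were 4.40 for C1qb and 4.13 for C1qc in CDS tumors, and 5.54 for C1qb and 5.24 for C1qc in ES tumors. Ranked within each array, the C1q chains stood at percentiles between 82.0 and 97.1 in CDS tumors and between 86.3 and 97.9 in ES tumors, against 66.4 to 77.6 in eMC empty cells.

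**Figure D1:**
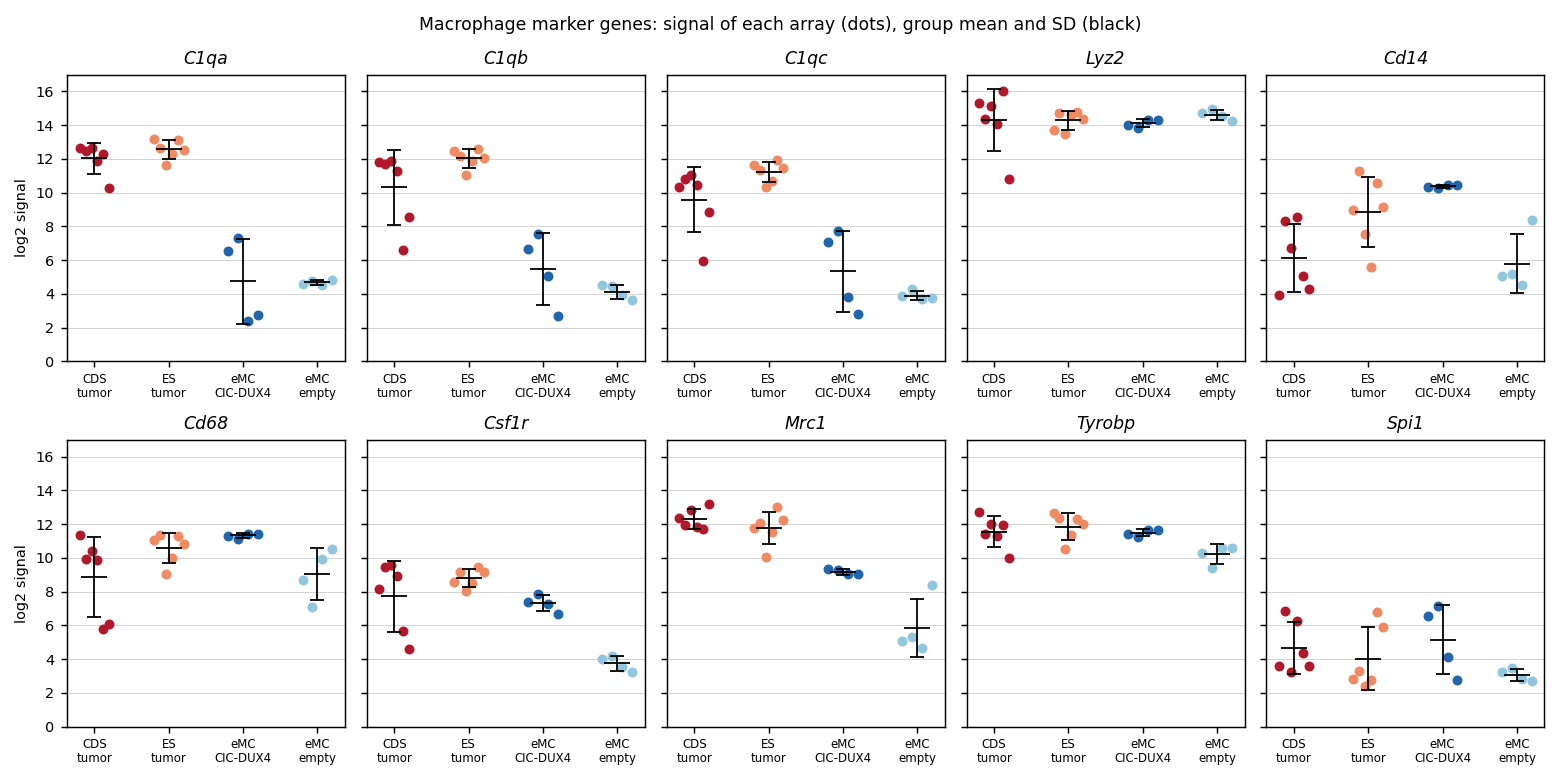
Log2 signal of each of the 10 macrophage markers (1 panel a gene, vertical axis in log2 signal as deposited) in CDS tumors, ES tumors, eMC CIC-DUX4 and eMC empty cells; dots are arrays, black lines the group mean and SD. C1qa separates the tumors (10.26 and above) from eMC empty cells (4.82 and below), whereas Lyz2 is bright in every group.

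The mannose receptor Mrc1 and the growth factor receptor Csf1r were also higher in both kinds of tumor than in eMC empty cells. Mrc1 had log2 signals of 11.70 to 13.18 in CDS tumors (median 12.14) and 10.06 to 12.99 in ES tumors (median 11.93), against 5.10, 5.29, 4.65 and 8.41 in eMC empty cells 4 to 7. The groups did not overlap, and eMC empty 7 stood well above the other 3 arrays. Of the 4 eMC empty arrays, 3 read Mrc1 below their dip. The log2 fold change was 6.44 ± 0.69 for CDS tumors (adjusted p = 4.95e-06, 4.08 on the quantile scale) and 5.91 ± 0.74 for ES tumors (adjusted p = 7.23e-05, 3.43 on the quantile scale).

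Csf1r had log2 signals of 4.62 to 9.58 in CDS tumors (median 8.55) and 8.03 to 9.47 in ES tumors (median 8.86), against 3.98, 4.19, 3.53 and 3.25 in eMC empty cells 4 to 7. CDS 6 (4.62) and CDS 5 (5.64) came closest to the eMC empty arrays, and the groups did not overlap. CDS 5 and CDS 6 both read Csf1r below their dip, so their gap from eMC empty cells lies between dim signals. Csf1r was higher in CDS tumors than in eMC empty cells, at least 1.88-fold (log2 fold change 3.99 ± 1.16, adjusted p = 0.0217) and in ES tumors by at least 3.95-fold (5.07 ± 0.62, adjusted p = 6.21e-05). The CDS mean behind that bound includes these dim values. On the quantile scale these fold changes were 2.47 and 2.40. The CDS call is a weak one as deposited: the adjusted p was 0.0623 without eMC empty 4, 0.0556 without eMC empty 5 and 0.0637 without eMC empty 6.

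The other 5 markers separated tumors from eMC empty cells less clearly. Tyrobp, the signalling adaptor, had log2 signals of 9.998 to 12.71 in CDS tumors (median 11.68) and 10.52 to 12.64 in ES tumors (median 12.14), against 10.31, 9.37, 10.59 and 10.61 in eMC empty cells 4 to 7. The groups overlapped. It was called higher in ES tumors (1.63 ± 0.41, adjusted p = 0.00630, 1.21 on the quantile scale). In CDS tumors its log2 fold change was 1.34 ± 0.50 (adjusted p = 0.0624), and without CDS 6 it was 1.65 with an adjusted p of 0.0128.

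Lyz2 was among the brightest probe sets of nearly every array and did not pass the test in either tumor comparison with eMC empty cells. Its log2 signals were 10.81 to 16.0003 in CDS tumors (median 14.74) and 13.46 to 14.77 in ES tumors (median 14.50), against 14.72, 14.97, 14.52 and 14.25 in eMC empty cells 4 to 7. CDS 6 alone stood apart, below all other arrays of these 3 groups. The log2 fold changes were -0.33 ± 0.67 (adjusted p = 0.716) for CDS tumors and -0.34 ± 0.26 (adjusted p = 0.292) for ES tumors, and 0.09 and 0.59 on the quantile scale. The probe set of Lyz2 is of the kind whose probes may match other transcripts, so its close copy Lyz1 cannot be told apart from it.

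Cd68 spanned a wide range within both CDS tumors and eMC empty cells. It had log2 signals of 5.77 to 11.36 in CDS tumors (median 9.88) and 9.07 to 11.35 in ES tumors (median 10.94), against 8.70, 7.06, 9.91 and 10.55 in eMC empty cells 4 to 7. Its log2 fold change was -0.17 ± 1.08 in CDS tumors (adjusted p = 0.909) and 1.54 ± 0.66 in ES tumors (adjusted p = 0.0694). The ES value passed the test without ES 47 (1.84, adjusted p = 0.035) or without eMC empty 7 (2.03, adjusted p = 0.0233), and was 0.17 on the quantile scale.

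Cd14 had log2 signals of 3.95 to 8.53 in CDS tumors (median 5.86) and 5.58 to 11.29 in ES tumors (median 9.07), against 5.07, 5.15, 4.52 and 8.36 in eMC empty cells 4 to 7. These 3 groups overlapped on this scale. The fold change of Cd14 in CDS tumors took opposite signs on the 2 scales, 0.35 ± 1.23 as deposited (adjusted p = 0.835) and -1.86 after quantile normalization (adjusted p = 0.000328). Within their arrays the CDS tumors ranked Cd14 at percentiles of 66.2 to 72.7, below all eMC empty cells at 77.6 to 80.4. In ES tumors Cd14 was called as deposited (3.08 ± 1.13, adjusted p = 0.0383) and not after quantile normalization (0.25, adjusted p = 0.839). The deposited call was lost without any one of ES 41, ES 46, ES 49 or ES 51 (adjusted p 0.0599 to 0.0795) and of eMC empty 4, 5 or 6 (0.0891 to 0.0962).

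Spi1, the myeloid transcription factor, was dim in most arrays. Its log2 signals were 3.23 to 6.87 in CDS tumors (median 3.97) and 2.43 to 6.82 in ES tumors (median 3.06), against 3.24, 3.44, 2.84 and 2.68 in eMC empty cells 4 to 7. The groups overlapped, and neither comparison passed the test (adjusted p = 0.152 for CDS and 0.346 for ES tumors). Its percentile was 48.9 to 65.2 in CDS tumors, 45.4 to 69.0 in ES tumors and 50.9 to 54.8 in eMC empty cells, near the middle of each array.

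In all, 5 of the 10 markers were called higher and 0 lower in CDS tumors than in eMC empty cells, where 14.6% of all genes were called higher and 5.81% lower. Those 5, the C1q chains, Csf1r and Mrc1, were also the ones whose CDS values all lay above the eMC empty values, as 15.4% of all genes did. In ES tumors 7 were called higher and 0 lower, against 30.1% of all genes higher and 10.9% lower. The ES values of 5 markers all lay above the eMC empty values, as did those of 21.2% of all genes. The markers' median log2 fold change was 2.79 in CDS tumors and 4.07 in ES tumors, against 0.89 and 0.64 over all genes tested. On both scales alike, 5 markers were called higher in CDS tumors and 6 in ES tumors, against 12.9% and 14.6% of all genes. The 2 comparisons share the eMC empty cells.

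**Figure D2:**
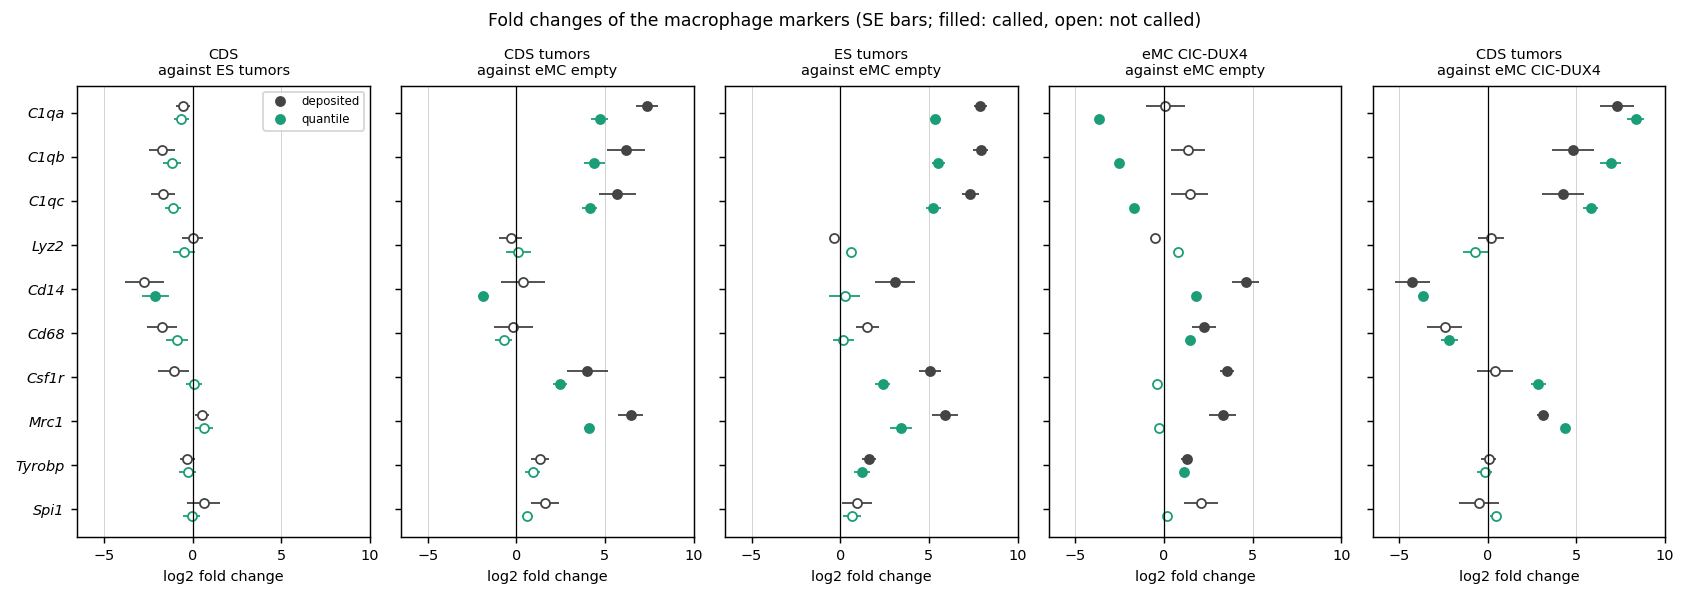
Log2 fold changes of the 10 markers in 5 comparisons (horizontal axis), on deposited (grey) and quantile-normalized values (green), with standard error bars; filled points were called and open points were not. C1qa, C1qb, C1qc, Csf1r and Mrc1 are called on both scales in each tumor group against eMC empty cells, while in eMC CIC-DUX4 against eMC empty cells the C1q chains are called on the quantile scale only, with negative sign.

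The direct comparison of the tumors asks how CIC-DUX4 sarcoma differs from Ewing sarcoma. None of the 10 markers was called between CDS and ES tumors on the deposited scale, at a background of 20.8% of all genes called in either direction, and the values of every marker overlapped between the 2 tumor types, whereas 8.92% of all genes lay higher in CDS tumors without overlap. As deposited the adjusted p ranged between 0.0808 (Cd14) and 0.994 (Lyz2). Cd14 averaged 6.13 ± 2.01 in CDS tumors and 8.85 ± 2.07 in ES tumors (SD, n = 6 each), a log2 fold change of -2.73 ± 1.10. On the quantile scale Cd14 was the 1 marker called, lower in CDS tumors (-2.11 ± 0.76, adjusted p = 0.0376), where 33.1% of all genes were called in either direction. As deposited it also passed without CDS 4 (-3.21, adjusted p = 0.0468) or without ES 48 (-3.38, adjusted p = 0.0328).

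The C1q chains averaged less in CDS than in ES tumors, without passing the test. C1qa averaged 12.02 ± 0.91 in CDS tumors and 12.57 ± 0.56 in ES tumors (log2 fold change -0.54 ± 0.38, adjusted p = 0.294). C1qb averaged 10.30 ± 2.21 in CDS tumors and 12.04 ± 0.55 in ES tumors (-1.73 ± 0.74, adjusted p = 0.0970), and C1qc 9.58 ± 1.93 in CDS tumors and 11.24 ± 0.60 in ES tumors (-1.66 ± 0.68, adjusted p = 0.0874). The spread among CDS tumors came largely from CDS 5 and CDS 6. With these left out, a choice made after seeing the data, 0 markers were called on either scale. With the arrays instead scaled to the same median, C1qa (-1.72), C1qb (-2.91), C1qc (-2.83) and Cd14 (-3.92) were called lower in CDS than in ES tumors, with adjusted p between 0.0222 and 0.0493, so the call on the C1q chains depends on the scaling. The same scaling took Mrc1 from 0.53 to -0.65 and Lyz2 from 0.0074 to -1.17. Neither here nor with CDS 5 and CDS 6 left out is the share of all genes called given, so these counts are not results about the markers alone. For Mrc1 the CDS mean was the higher, 12.30 ± 0.59 in CDS tumors and 11.77 ± 0.98 in ES tumors (0.53 ± 0.40, adjusted p = 0.341). A p that missed the threshold does not show that the tumors were alike in these genes.

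Single tumors were low or high for most of the markers. ES 47 was the lowest ES tumor for 9 of the 10 markers on both scales: the exception was Cd14 in ES 48 as deposited and Lyz2 in ES 41 after quantile normalization. ES 49 was the highest ES tumor for 6 markers as deposited and for 7 after quantile normalization. Its C1qc signal of 11.95 compares with 10.35 in ES 47, and its Mrc1 signal of 12.99 with 10.06. Over the 10 markers, the mean quantile-normalized log2 signal ranged between 8.44 and 10.48 in CDS tumors and between 8.87 and 11.45 in ES tumors, against 7.58 to 7.69 in eMC CIC-DUX4 cells and 7.87 to 8.08 in eMC empty cells. ES 47 was also the lowest ES tumor in 13 of 16 gene lists with at least 3 genes, the markers included.

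Among CDS tumors, CDS 6 was the lowest for 9 of the 10 markers after quantile normalization and for 4 as deposited. The exception was Mrc1, for which CDS 6 had the highest signal of any CDS tumor (13.18). CDS 6 was the lowest CDS tumor in 13 of the 16 lists, endothelium and mesenchyme included, and had the largest Actb difference between the 3′ and 5′ ends; the part of RNA quality in its low marker values was not tested. CDS 5 was the lowest CDS tumor for 4 markers as deposited, C1qb, C1qc, Cd68 and Mrc1, yet it had the highest Lyz2 signal of all 20 arrays (16.0003).

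**Figure D3:**
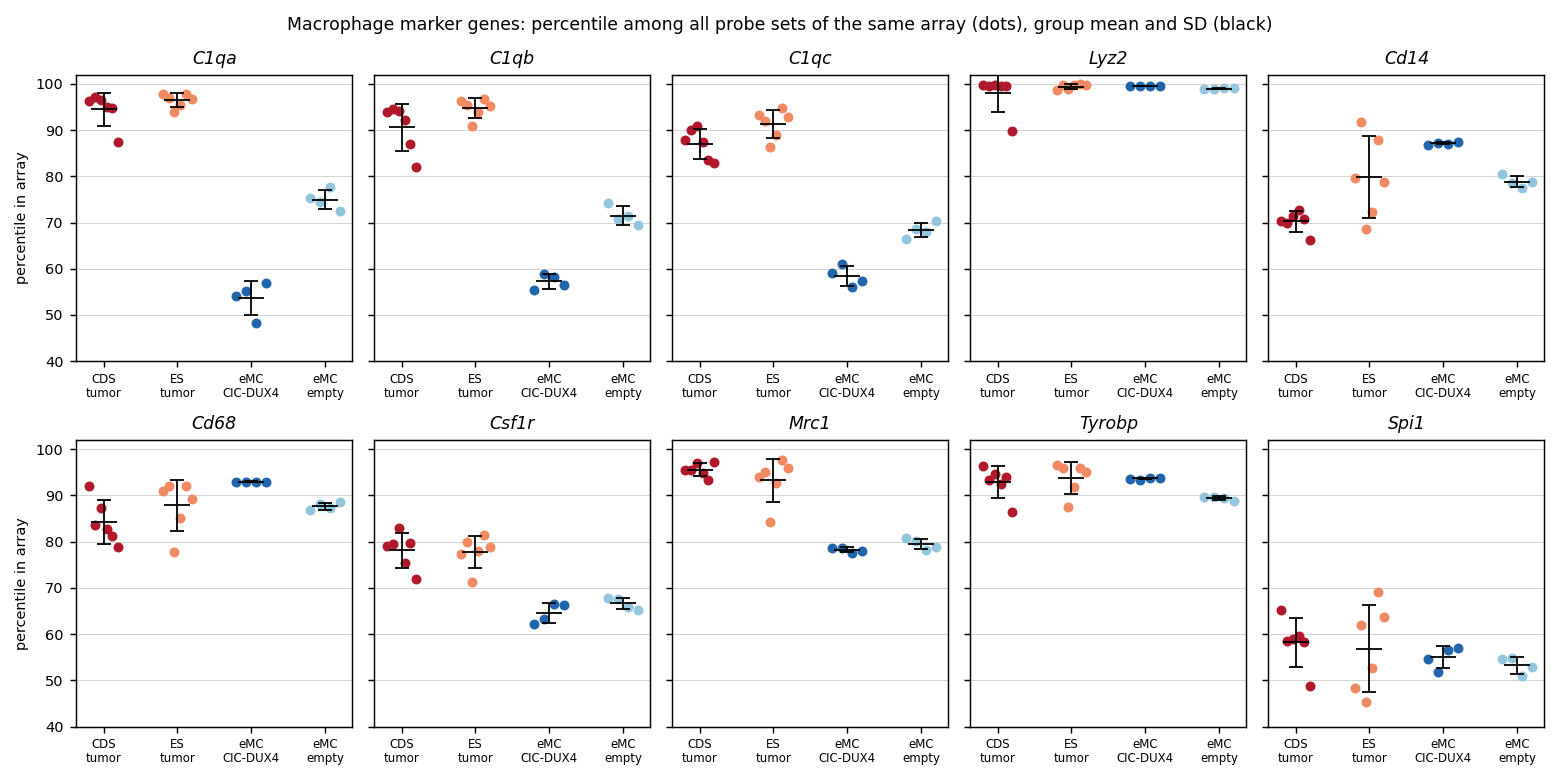
Percentile of each of the 10 markers among all probe sets of the same array (vertical axis, percent), by group; dots are arrays, black lines the group mean and SD. The C1q chains rank lowest in eMC CIC-DUX4 cells (48.3 to 61.0), between them and the tumors in eMC empty cells (66.4 to 77.6), and highest in the tumors (82.0 and above).

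Setting eMC CIC-DUX4 against eMC empty cells asks what the fusion does within 48 hours in culture. In the deposited signals 5 of the 10 markers were called higher (Cd14, Cd68, Csf1r, Mrc1 and Tyrobp) and 0 lower, where 46.4% of all genes were called higher and 4.62% lower. The markers' median log2 fold change was 1.77 and that of all genes 2.07: the markers' share and median were near those of all genes. On the quantile scale 3 markers were called higher and 3 lower, against 8.07% of all genes called higher and 4.81% lower. With the arrays scaled to the same median, 0 of the 10 were called, a count given here without the share of all genes.

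Cd14, Cd68 and Tyrobp, 3 of the 10 markers, were called higher in eMC CIC-DUX4 cells on both of the first 2 scales, as were 7.68% of all genes. All values of 5 markers lay above those of eMC empty cells in the deposited signals, as did 47.8% of all genes. Cd14 had log2 signals of 10.34, 10.29, 10.42 and 10.47 in eMC CIC-DUX4 cells 5 to 8, against 5.07, 5.15, 4.52 and 8.36 in eMC empty cells 4 to 7. The groups did not overlap, and the log2 fold change was 4.61 ± 0.77 (adjusted p = 0.000798), or 1.79 ± 0.12 after quantile normalization (adjusted p = 1.29e-07). Ranked within each array, Cd14 stood at percentiles of 86.8 to 87.3 in eMC CIC-DUX4 cells and 77.6 to 80.4 in eMC empty cells.

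Cd68 had log2 signals of 11.31, 11.14, 11.43 and 11.43 in eMC CIC-DUX4 cells, against 8.70, 7.06, 9.91 and 10.55 in eMC empty cells (2.27 ± 0.67, adjusted p = 0.0166, and 1.44 on the quantile scale). Tyrobp had 11.44, 11.26, 11.63 and 11.66 in eMC CIC-DUX4 cells, against 10.31, 9.37, 10.59 and 10.61 in eMC empty cells (1.28 ± 0.31, adjusted p = 0.00661, and 1.11 on the quantile scale). For both genes all eMC CIC-DUX4 arrays lay above all eMC empty arrays. Of 9 pan-leukocyte genes, 8 were called higher in eMC CIC-DUX4 than in eMC empty cells as deposited and 5 on both scales. The shares of all genes were 46.4% and 7.68%. The part of pan-leukocyte genes in the marker values was not tested. As deposited, the fold change of Tyrobp lay below the median of all genes (2.07) and that of Cd68 close to it.

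Csf1r and Mrc1 were higher in eMC CIC-DUX4 cells in the deposited signals only. Csf1r had log2 signals of 7.39, 7.88, 7.28 and 6.70 in eMC CIC-DUX4 cells (3.57 ± 0.40, adjusted p = 6.50e-05), and was -0.37 on the quantile scale (adjusted p = 0.159). Mrc1 had 9.33, 9.29, 9.05 and 9.02 in eMC CIC-DUX4 cells (3.31 ± 0.76, adjusted p = 0.00475), and was -0.28 on the quantile scale (adjusted p = 0.122). Both ranked at nearly the same percentile in the 2 eMC groups: Csf1r at 62.1 to 66.5 in eMC CIC-DUX4 cells and 65.3 to 67.7 in eMC empty cells, and Mrc1 at 77.5 to 78.6 in eMC CIC-DUX4 cells and 78.2 to 80.8 in eMC empty cells.

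The C1q chains showed the reverse. In the deposited signals they were dim and scattered: C1qa had 6.51, 7.32, 2.38 and 2.74 in eMC CIC-DUX4 cells 5 to 8 (log2 fold change 0.06 ± 1.10, adjusted p = 0.958). The C1qb signals were 6.64, 7.55, 5.05 and 2.70 in the same cells (1.37 ± 0.95, adjusted p = 0.233), and the C1qc signals 7.04, 7.71, 3.82 and 2.81 (1.45 ± 1.05, adjusted p = 0.249). Arrays 5 and 6 read higher than 7 and 8 for each chain. They also had the higher medians over all probe sets, 6.13 and 7.05, against 2.50 and 2.33 in arrays 7 and 8. On the quantile scale all 3 chains were called lower in eMC CIC-DUX4 than in eMC empty cells, with log2 fold changes of -3.64 ± 0.24 for C1qa, -2.52 ± 0.23 for C1qb and -1.68 ± 0.22 for C1qc (adjusted p 8.03e-08, 1.64e-06 and 2.88e-05). Since all eMC empty arrays read C1qa, C1qb and C1qc below their dip, these are differences between dim signals.

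Lyz2 had 14.03, 13.84, 14.29 and 14.32 in eMC CIC-DUX4 cells against 14.72, 14.97, 14.52 and 14.25 in eMC empty cells, with a fold change of opposite sign on the 2 scales (-0.50 ± 0.16 as deposited, 0.79 on the quantile scale), too small to be called. Spi1 had 6.56, 7.13, 4.13 and 2.76 in eMC CIC-DUX4 cells (2.09 ± 0.96, adjusted p = 0.0868, and 0.17 on the quantile scale). Without eMC CIC-DUX4 8 it passed as deposited (2.89, adjusted p = 0.011), as did C1qb (2.30, adjusted p = 0.0126). The deposited calls of both genes thus changed with this 1 array. The fit without it keeps eMC CIC-DUX4 5 and 6, the arrays of higher median, and without those C1qb was -0.24 (adjusted p = 0.759).

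The comparison of CDS tumors with eMC CIC-DUX4 cells asks what sets the established tumor apart from the freshly transduced cells. C1qa, C1qb, C1qc and Mrc1 were called higher and Cd14 lower in CDS tumors on both scales, where 4.05% of all genes were called higher and 12.5% lower on both scales. C1qa was higher by 7.29 ± 0.94 (adjusted p = 0.000146), C1qb by 4.82 ± 1.18 (adjusted p = 0.0127), C1qc by 4.24 ± 1.18 (adjusted p = 0.0241) and Mrc1 by 3.13 ± 0.35 (adjusted p = 4.86e-05) in log2 units. After quantile normalization the differences were 8.35 for C1qa, 6.92 for C1qb, 5.80 for C1qc and 4.36 for Mrc1. The C1qc call was lost without eMC CIC-DUX4 7 (adjusted p = 0.0737) or 8 (0.0707), or without CDS 1 (0.0545) or CDS 3 (0.0513). With the arrays scaled to the same median, the calls of Mrc1 (3.95, adjusted p = 0.0991) and Cd14 (-3.45, adjusted p = 0.215) were lost. The Cd14 call was also lost without the 3 arrays of the highest medians (-4.75, adjusted p = 0.0677). Cd14 averaged 6.13 ± 2.01 in CDS tumors (n = 6) and 10.38 ± 0.08 in eMC CIC-DUX4 cells (n = 4), a log2 fold change of -4.25 ± 0.97 (adjusted p = 0.00850, -3.65 on the quantile scale). Cd14 and the C1q chains thus ran in opposite directions between these groups. The CDS values of 2 markers, C1qa and Mrc1, all lay above those of eMC CIC-DUX4 cells, as did 7.14% of all genes. Csf1r, on the quantile scale alone, where 16.8% of all genes were called higher and 20.2% lower, was also called higher in CDS tumors (2.84, adjusted p = 0.000128) and Cd68 lower (-2.16, adjusted p = 0.00317). As deposited these were 0.42 ± 1.02 (adjusted p = 0.777) for Csf1r and -2.44 ± 0.98 (adjusted p = 0.0920) for Cd68.

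The label of the list was checked against 23 tested genes of 25 other macrophage and monocyte genes. Of these, 12 were called higher and 1 lower in CDS tumors than in eMC empty cells, and 17 higher and 1 lower in ES tumors, where 14.6% and 30.1% of all genes were called higher. Between CDS and ES tumors 0 were called in either direction as deposited, against 20.8% of all genes. On both scales alike 11 were higher in CDS and 13 in ES tumors than in eMC empty cells, against 12.9% and 14.6% of all genes. In eMC CIC-DUX4 against eMC empty cells, 12 were called higher as deposited, close to the 46.4% of all genes. On both scales 5 were, against 7.68% of all genes. The macrophage protease gene Ctss averaged 13.56 in CDS tumors, 13.38 in ES tumors, 13.17 in eMC CIC-DUX4 cells and 13.38 in eMC empty cells, and was called in no comparison. Lgmn averaged 12.89 in CDS tumors, 12.13 in ES tumors, 12.25 in eMC CIC-DUX4 cells and 12.21 in eMC empty cells. Like Lyz2 and Tyrobp, Ctss and Lgmn were bright in cultured eMC, where the C1q chains were dim. Gpnmb and Lilrb4a averaged 13.03 and 11.66 in eMC empty cells, against 5.41 and 11.08 in CDS and 8.48 and 11.12 in ES tumors. Not all genes of this list were thus higher in tumors than in culture.

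Genes that work with the markers varied by role. Of the Csf1r axis, the ligand gene Csf1 averaged 7.92 in CDS tumors, 8.88 in ES tumors and 12.63 in eMC empty cells, and was called lower in both tumors (-4.71 ± 0.74 in CDS and -3.75 ± 0.31 in ES tumors, adjusted p = 0.000260 and 4.05e-06, and -4.24 and -4.30 on the quantile scale). The receptor gene Csf1r was thus higher and Csf1 lower in the tumors than in eMC empty cells, and a link between these differences was not tested. Csf2rb, the shared beta chain of the receptors for GM-CSF, Il3 and Il5, was higher in CDS tumors (4.14 ± 1.04, adjusted p = 0.00966), in ES tumors (4.25 ± 0.78, adjusted p = 0.000906) and in eMC CIC-DUX4 cells (4.65 ± 0.66, adjusted p = 0.000305) than in eMC empty cells. Its quantile values were 2.48 in CDS tumors, 1.67 in ES tumors and 1.94 in eMC CIC-DUX4 cells, and 3 of the 4 eMC empty arrays read Csf2rb below their dip.

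Downstream of C1q, the proteases C1s1 and C1ra, which associate with C1q to form the first complement complex, were called between the tumors. C1s1 averaged 12.86 ± 0.56 in CDS tumors and 9.80 ± 0.69 in ES tumors (3.05 ± 0.35, adjusted p = 1.04e-05, 3.68 on the quantile scale), and no CDS tumor overlapped an ES tumor. C1ra was higher in CDS than in ES tumors by 1.88 ± 0.56 (adjusted p = 0.0233, 2.63 on the quantile scale). Of the 9 complement genes tested, these 2 were called between the tumor types, a share near the 20.8% of all genes.

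Among the 7 tested partners of Tyrobp, 1 was called higher in CDS tumors than in eMC empty cells, 4 in ES tumors and 4 in eMC CIC-DUX4 cells, with 0 lower, where 14.6%, 30.1% and 46.4% of all genes were called higher. On both scales alike the counts were 1 in CDS tumors, 1 in ES tumors and 2 in eMC CIC-DUX4 cells. The shares of all genes were 12.9%, 14.6% and 7.68% in that order. Fcer1g, an adaptor of Fc receptors related to Tyrobp, was the one in CDS tumors (2.32 ± 0.67, adjusted p = 0.0214, 1.40 on the quantile scale). Trem2, a lipid-sensing receptor that signals through Tyrobp, averaged 9.37 ± 0.06 in eMC CIC-DUX4 cells and 4.37 ± 0.25 in eMC empty cells (4.99 ± 0.30, adjusted p = 8.28e-06, 1.31 on the quantile scale). All eMC empty arrays read Trem2 below their dip, so the bound for the deposited signals is at least 5.83-fold.

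Of the 10 tested transcription factor genes that act with Spi1, 1 was called higher and 1 lower in CDS than in ES tumors, a share near the 20.8% of all genes. Irf4, a factor that binds DNA with Spi1 in lymphoid and myeloid cells, averaged 9.05 ± 1.63 in CDS tumors and 2.74 ± 0.33 in ES tumors (6.31 ± 0.94, adjusted p = 0.000122). Klf4, a factor of monocytes that is also active in many other cells, averaged 6.64 ± 2.34 in CDS tumors and 11.87 ± 0.64 in ES tumors (-5.23 ± 0.84, adjusted p = 0.000279). Neither gene's values overlapped between the tumors, and both passed on the quantile scale (5.45 and -5.02). All ES arrays read Irf4 below their dip, which gives a bound of at least 17.5-fold.

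Among 9 genes of monocyte-attracting chemokines 1 was called between the tumor types, against 20.8% of all genes. This was Cx3cl1, whose receptor Cx3cr1 is carried by monocytes and macrophages. It averaged 9.77 ± 1.91 in CDS tumors and 2.46 ± 0.30 in ES tumors (7.31 ± 0.98, adjusted p = 5.02e-05, 6.96 on the quantile scale). All ES arrays read Cx3cl1 below their dip, and its bound was at least 28.8-fold. Of 5 genes of the Cd14 and lipopolysaccharide pathway, 0 were called between the tumors as deposited. In eMC CIC-DUX4 against eMC empty cells their median log2 fold change was 2.47, against 2.07 over all genes, and -0.49 on the quantile scale. There 46.4% of all genes were called higher as deposited and 7.68% on both scales. Of the 5 genes, 4 were called higher as deposited, 2 of them on both scales. Lbp, the binding protein that hands lipopolysaccharide to Cd14, was one of these (2.61 ± 0.82, adjusted p = 0.0214, 1.65 on the quantile scale). Of 8 lysosome genes, 5 were called lower in CDS and 8 lower in ES tumors than in eMC empty cells, against 5.81% and 10.9% of all genes. Of those called, 2 in CDS and 4 in ES tumors were also called on the quantile scale, counts given without the share of all genes. Among them was the cathepsin gene Ctsl (-2.36 ± 0.25 in CDS and -2.27 ± 0.36 in ES tumors, adjusted p = 4.09e-06 and 0.000346, and -1.70 and -1.38 on the quantile scale).

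Marker genes of other cell types moved with the same comparisons, and their part in the marker values was not tested. Of 9 pan-leukocyte genes 6 were called higher in CDS and 8 in ES tumors than in eMC empty cells, against 14.6% and 30.1% of all genes. Their summed signals were 1622 to 14661 in CDS tumors, 4642 to 18280 in ES tumors, 6351 to 6686 in eMC CIC-DUX4 cells and 577 to 3202 in eMC empty cells. On both scales alike the count was 6 in each tumor type, against 12.9% of all genes in CDS and 14.6% in ES tumors. Between CDS tumors and eMC CIC-DUX4 cells 0 of the 9 were called as deposited. On the quantile scale 5 were called higher there, against 16.8% of all genes. Of 7 genes of MHC class II and dendritic cells 4 were called higher in each tumor type than in eMC empty cells, against 14.6% and 30.1% of all genes. The summed signals of this list were 2557 to 8319 in CDS tumors, 1351 to 7649 in ES tumors, 221 to 1158 in eMC CIC-DUX4 cells and 36.4 to 66.2 in eMC empty cells. H2-Aa, an MHC class II chain that macrophages also carry, averaged 11.41 ± 0.68 in CDS tumors and 2.93 ± 0.38 in eMC empty cells (8.48 ± 0.73, adjusted p = 3.67e-07, 7.99 on the quantile scale). All eMC empty arrays read it below their dip, and its bound was at least 24.0-fold.

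Endothelial genes were called higher in both tumors as well, 8 of 9 in CDS and 7 of 9 in ES tumors against eMC empty cells. There 14.6% of all genes were called higher in CDS and 30.1% in ES tumors. The summed endothelial signals were 6362 to 11402 in CDS tumors, 921 to 5467 in ES tumors, 341 to 1494 in eMC CIC-DUX4 cells and 48.6 to 84.2 in eMC empty cells. Of the 9, 3 were also called higher in CDS than in ES tumors, and 0 lower, where 20.8% of all genes were called in either direction. Cdh5, a junction protein of blood vessels, averaged 12.08 ± 0.34 in CDS tumors and 8.70 ± 1.13 in ES tumors (3.38 ± 0.46, adjusted p = 5.53e-05, 4.28 on the quantile scale). Of 10 genes of mesenchyme and fibroblasts, 4 were called higher and 1 lower in CDS than in ES tumors, against the same 20.8% of all genes. Against eMC empty cells, 0 of these 10 were called higher in either tumor, with 3 lower in CDS and 6 lower in ES tumors, on both scales alike. As deposited, 5.81% of all genes were called lower in CDS and 10.9% in ES tumors. The summed signals of the mesenchyme list were 42335 to 124288 in CDS tumors, 12410 to 44652 in ES tumors, 60388 to 80103 in eMC CIC-DUX4 cells and 99541 to 174506 in eMC empty cells. Of 4 mast cell genes, 1 was called higher and 2 lower in CDS tumors, and 1 higher and 3 lower in ES tumors, than in eMC empty cells. Over all genes the shares were 14.6% higher and 5.81% lower in CDS tumors, and 30.1% higher and 10.9% lower in ES tumors. The summed mast cell signals were 103 to 1698 in CDS tumors, 270 to 2149 in ES tumors, 1698 to 2041 in eMC CIC-DUX4 cells and 140 to 1696 in eMC empty cells. Of 6 neutrophil genes 1, Ltf (lactoferrin), was called lower in CDS than in ES tumors (-4.67 ± 1.18, adjusted p = 0.00930, -4.09 on the quantile scale), at least 5.33-fold in the deposited signals. In that comparison 20.8% of all genes were called in either direction as deposited. The summed neutrophil signals were 37.7 to 2110 in CDS tumors, 710 to 10084 in ES tumors, 18.6 to 667 in eMC CIC-DUX4 cells and 33.2 to 52.6 in eMC empty cells. Of 5 lymphocyte genes 1 was called higher in CDS than in ES tumors as deposited, a share near the 20.8% of all genes. Against eMC empty cells 1 was called higher in CDS and 0 in ES tumors, where 14.6% and 30.1% of all genes were called higher. The summed lymphocyte signals were 30.3 to 1059 in CDS tumors, 19.5 to 314 in ES tumors, 251 to 918 in eMC CIC-DUX4 cells and 26.5 to 38.8 in eMC empty cells. No gene of these lists was listed at 0 in any array.

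**Figure D4:**
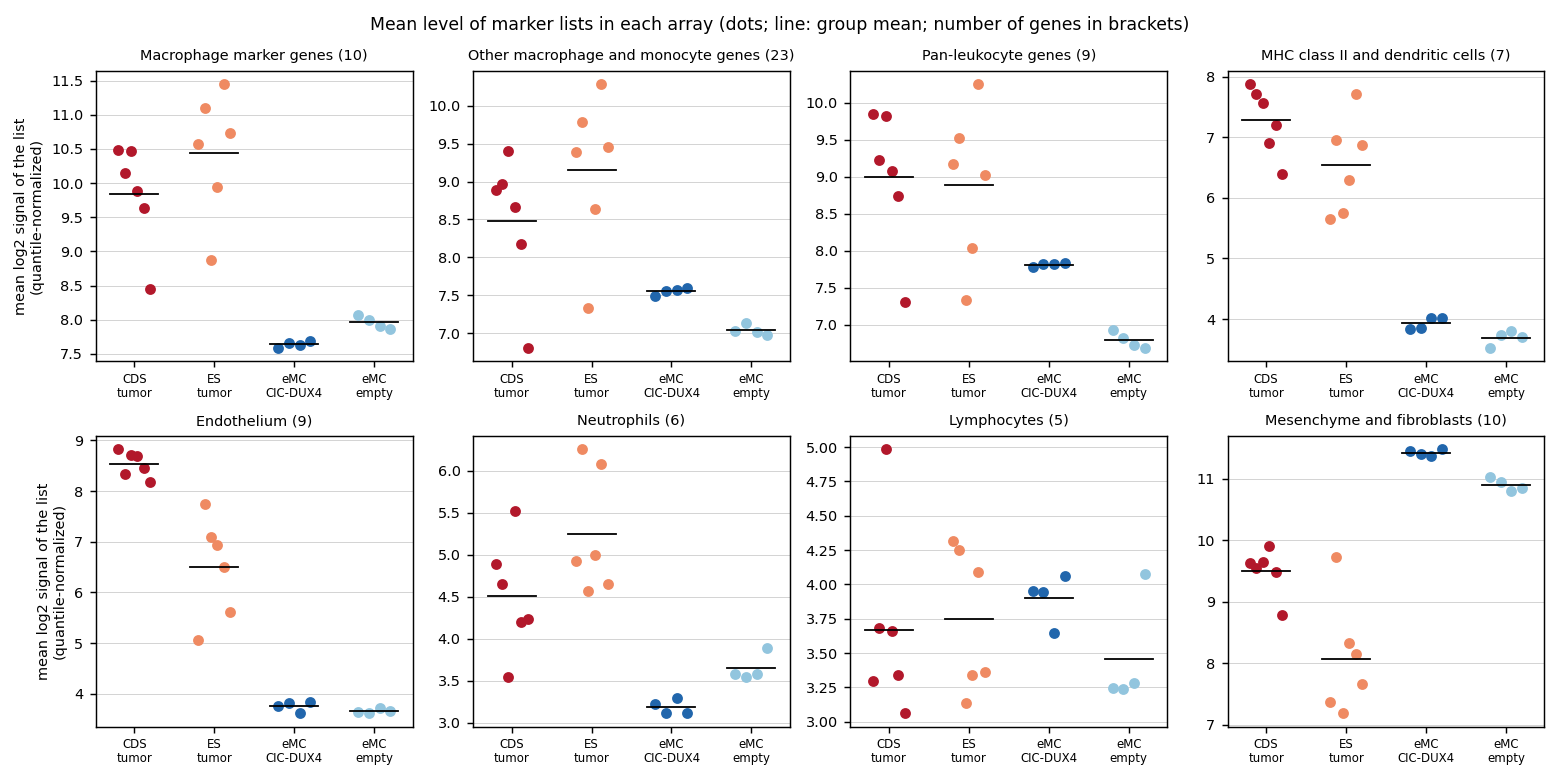
Mean quantile-normalized log2 signal of 8 gene lists in each array (vertical axis, log2 signal), with the number of genes in brackets; dots are arrays, lines group means. The 10 macrophage markers run from 8.44 to 10.48 in CDS tumors and from 8.87 to 11.45 in ES tumors, above both eMC groups (8.08 and below), and the endothelium list shows CDS tumors (8.18 to 8.83) above ES tumors (5.07 to 7.75).

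The genes whose profile over the 20 arrays was nearest to the mean profile of the 10 markers were found by the mean absolute difference of quantile-normalized log2 values, each centred on its own mean, as a description. They were H2-DMb1 (0.28), Arhgap30 (0.28), Ms4a6c (0.32), Ms4a7 (0.36), Laptm5 (0.37) and Fyb (0.37), where the median over all genes was 1.36. H2-DMb1 was at a low level, with quantile means of 3.62 in CDS tumors, 4.32 in ES tumors, 1.63 in eMC CIC-DUX4 cells and 1.70 in eMC empty cells. Of the markers themselves, Csf1r was the nearest to the mean profile (0.34), and C1qa (2.16) and Cd14 (2.07) were the farthest. The list thus holds genes of unlike profile: the C1q chains and Mrc1 were highest in the tumors, Lyz2 was bright in all groups, and Cd14 had its highest mean in eMC CIC-DUX4 cells.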

How the data were processed

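Total RNA of 20 mouse samples had been hybridised to 1 Affymetrix array each. The deposited values are log2 signals. MAS5 is the tool in the submitters' processing notes, and the sources used here do not give its settings. Of 45141 probe sets 104 controls were left out, 28898 had 1 gene symbol, 551 several and 15588 none. The design had assumed linear signals, so values were returned to the linear scale and 1.42305, or 0.25 times the median of the arrays' medians, was added before log2. Probe sets above their array's median in at least 4 of 20 arrays were kept, 26897 in all, and 1 a gene (the highest mean) was tested, for 12343 genes; all 10 markers passed. Each pair of groups was fitted with limma 3.58.1 in R 4.3.3 (lmFit, eBayes with trend, two-sided, Benjamini-Hochberg), with data.table, version 1.17.8, and the steps were tested on simulated data. Quantile values come from quantile normalization of the log2 values of all arrays. The dip is where the density of an array's values (bandwidth 0.35) is lowest between its dim and bright parts. A fold is "at least" where every array of the dimmer group lay below its dip. The brighter mean is then divided by a dim mean in which a signal under the dip is replaced by the dip. Signals of the brighter group that lay under their dip were left as they were. For eMC CIC-DUX4 6 no dip was found.

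The markers, the 16 companion lists (134 of 171 genes tested) and the tests were chosen with earlier results of these data known. Companion genes named were, per list, up to 4 members called in CDS against ES tumors, by size of the fold change, or the 2 of highest mean where 0 were called, and the 6 nearest profiles. Gpnmb and Lilrb4a were named outside this rule, for their level in eMC empty cells. Also run were other offsets, filters, scalings, thresholds, probe set summaries and a spread model without trend, all groups in 1 fit, the replicate number as a block and arrays left out. All columns belonged to listed samples (0 others), and 0 pairs of arrays were identical. The number of arrays limits the precision.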

Additional observations from a re-analysis of the deposited data

Results flagged for a closer look

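Each marker was looked at for an array far from the rest of its group, in 40 sets of 4 or 6 arrays, and 4 were found; chance alone marks about 1 in 20 such sets. In CDS tumors, CDS 6 was far below the others for C1qa, at a log2 signal of 10.26, and for Lyz2, at 10.81. In eMC empty cells, eMC empty 7 was far above the others for Cd14, at 8.36, and for Mrc1, at 8.41. Within its own array, eMC empty 7 ranked both genes like the rest of its group, Cd14 at a percentile of 78.7 and Mrc1 at 78.8.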

How the results depend on the processing

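The number of markers called in either direction was within 1.5 times that reported in 111 of 118 alternative counts. The counts in this section stand without the share of all genes called in each setting, so they are not results about the markers alone. Between CDS and ES tumors, where 0 were called, the count was 1 after quantile normalization, 4 with arrays scaled to the same median, 1 with all groups in 1 fit, and 0 to 1 with each array left out in turn (1 without CDS 4 or ES 48). With arrays scaled to the same median it was 0 in eMC CIC-DUX4 against eMC empty cells (5 as reported) and 3 between CDS tumors and eMC CIC-DUX4 (5 as reported). Leaving out each array gave 4 to 6 calls in CDS and 6 to 8 in ES tumors against eMC empty cells, 4 to 7 in eMC CIC-DUX4 against eMC empty cells and 4 to 5 in CDS tumors against eMC CIC-DUX4.

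Fold changes changed sign as follows, and the cause was not tested. On the quantile scale the values were, for CDS against ES tumors, Lyz2 -0.49, Csf1r 0.072 and Spi1 -0.055; for CDS tumors against eMC empty cells, Lyz2 0.095 and Cd14 -1.86; for ES tumors, Lyz2 0.59; for eMC CIC-DUX4 against eMC empty cells, C1qa -3.64, C1qb -2.52, C1qc -1.68, Lyz2 0.79, Csf1r -0.37 and Mrc1 -0.28; for CDS tumors against eMC CIC-DUX4, Lyz2 -0.70, Tyrobp -0.18 and Spi1 0.45. At the same median they were, in the same order of comparisons, Lyz2 -1.17, Mrc1 -0.65 and Spi1 -0.44; Cd14 -0.43; Lyz2 0.044; C1qa -1.62, C1qb -0.22, C1qc -0.14 and Tyrobp -0.35; Spi1 0.32. Without the 3 arrays of the highest medians, Lyz2 was -0.0063 in CDS against ES tumors; Cd14 -0.080 in CDS tumors and C1qa -2.11, C1qb -0.24 and C1qc -0.58 in eMC CIC-DUX4 against eMC empty cells; Lyz2 -0.032, Tyrobp -0.052 and Spi1 0.76 in CDS tumors against eMC CIC-DUX4. Without CDS 5 and 6, chosen after seeing the data, Csf1r was 0.22 and Tyrobp 0.0046 in CDS against ES tumors (0.31 and 0.10 on the quantile scale), Lyz2 0.11 and Cd68 1.32 in CDS tumors against eMC empty cells (on the quantile scale Lyz2 0.80 and Cd14 -1.68), and Spi1 0.69 in CDS tumors against eMC CIC-DUX4 on the quantile scale.

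With each array left out in turn, the range crossed 0 for Lyz2 (-0.34 to 0.70) and Tyrobp (-0.56 to 0.020) in CDS against ES tumors, Lyz2 (-0.67 to 0.37), Cd14 (-0.13 to 1.22) and Cd68 (-0.84 to 0.45) in CDS tumors and C1qa (-0.80 to 0.85) in eMC CIC-DUX4 against eMC empty cells, and Lyz2 (-0.18 to 0.86), Tyrobp (-0.16 to 0.38) and Spi1 (-1.29 to 0.16) in CDS tumors against eMC CIC-DUX4.

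Whether replicate numbers shared between groups pair the samples could not be settled from 2 or 3 shared numbers a comparison. Same-numbered arrays correlated at -0.19 to 0.49 in CDS tumors and eMC empty cells and at -0.19 to 0.38 in the 2 eMC groups. Against eMC empty cells, eMC CIC-DUX4 5 and 7 and CDS 5 correlated best with the array of the same number. For eMC CIC-DUX4 6, CDS 4 and CDS 6 the best match had another number. With the replicate number as a block, 5 markers were called in CDS tumors and 6 in eMC CIC-DUX4 against eMC empty cells, and 6 between CDS tumors and eMC CIC-DUX4, where Lyz2 was -0.53, Csf1r -2.50 and Tyrobp -0.38. These fits kept only arrays whose replicate number occurs in both groups. The block and the loss of arrays thus cannot be told apart. Between CDS tumors and eMC CIC-DUX4 only numbers 5 and 6 remained, so the fold changes there are differences between these arrays alone. CDS 5 and CDS 6 had the largest Actb differences, and eMC CIC-DUX4 5 and 6 the highest medians of their group. Which markers were called changed in these fits. Calls lost were Csf1r in CDS tumors against eMC empty cells (adjusted p = 0.281), Cd68 (0.0567) and Tyrobp (0.111) in eMC CIC-DUX4 against eMC empty cells, and C1qb (0.48, adjusted p = 0.592) and C1qc (0.038, adjusted p = 0.972) between CDS tumors and eMC CIC-DUX4. Calls gained were Lyz2 (lower, -1.10) in the first of these comparisons and C1qb, C1qc and Spi1 (all higher) in the second. In the third, Csf1r (-2.50), Cd68 (-5.31) and Spi1 (-2.89) were gained, all lower in CDS tumors. Signals under an array's dip carry little information, which limits the values of Spi1 and of the C1q chains in cultured eMC. Among the markers called higher in CDS tumors than in eMC empty cells, this also limits C1qb, C1qc and Csf1r in CDS 5 and Csf1r in CDS 6.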
